A study of Mus musculus with 9 samples.

Results

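Cycling cardiomyocyte nuclei of the postnatal mouse ventricle are nuclei that carry both heart muscle transcripts and transcripts of dividing cells, and 584 of the 33000 deposited barcodes met that definition. Members were chosen by measured UMI counts, so the levels of the genes that chose them are given as a description. A nucleus entered the class with at least 500 UMIs (unique molecular identifiers, each counting 1 captured RNA molecule) outside mitochondrially encoded genes, of which Malat1, an RNA retained in the nucleus, made up at least 3%. It needed at least 3 UMIs summed over the cardiomyocyte genes Ryr2, Ctnna3, Rbm20 and Fgf13, and at most 2 over Col1a2, Col3a1, Pdgfra, Flt1, Ptprb, Nrg1 and Notch3, which mark fibroblasts, endothelium and mural cells. These conditions alone gave 9442 cardiomyocyte nuclei. A cycling nucleus also held at least 3 UMIs summed over Mki67, Top2a, Ect2, Kif15, Knl1, Esco2, Neil3 and Iqgap3, here called cycle UMIs, and the other 8858 nuclei are called non-cycling.

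The study profiled single nuclei from ventricles of C57BL6/J mice by sNucDrop-seq, in which nuclei are captured in droplets with barcoded beads that prime on poly(A) tails. Knockouts (KO) lacked the nuclear receptors ERRα and ERRγ, and controls had 1 intact copy of ERRα and a wild-type ERRγ (labelled ERRalphaKO/ERRgammaKO and ERRalphaHet/ERRgammaWT). There were 3 libraries each from controls on postnatal day 6 (control P6), controls on postnatal days 9 to 10 (control P10) and knockouts of that later stage (KO P10), so every control carried 1 disrupted ERRα allele. Ventricles were either fresh or flash frozen, and the labels do not tell which library was which. They leave sex undetermined and give no Cre driver, no batch, and do not say whether each library is a different animal. Each p-value therefore measures only the spread between libraries, which may be technical.

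Cardiomyocytes of the mouse divide until shortly after birth, then pass through a last round of DNA synthesis in which many copy their DNA and divide the nucleus without dividing the cell, which leaves them binucleated. Cells that divide first replicate DNA in S phase, then condense and separate chromosomes in mitosis on a spindle attached at kinetochores, and finally pinch apart in cytokinesis by a contractile ring that RhoA controls. ERRα and ERRγ, encoded by Esrra and Esrrg, switch on genes of mitochondrial energy production as the heart matures.

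Many genes of this programme are bound at their promoters by complexes that read the CHR element (TTTGAA) and the CCAAT box, so the promoters of the 5 genes that lead the class are shown with these letters in capitals. Each run is the 250 bases before the transcript start, 5′ to 3′ on the strand of the gene, from RefSeq on GRCm38.p6. Capitals mark TTTGAA and CCAAT on either strand (TTCAAA and ATTGG are their reverse complements). Matches of these strings can share bases, which did not happen in the runs shown.

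Mki67 (chr7:135716380-135716629, minus strand): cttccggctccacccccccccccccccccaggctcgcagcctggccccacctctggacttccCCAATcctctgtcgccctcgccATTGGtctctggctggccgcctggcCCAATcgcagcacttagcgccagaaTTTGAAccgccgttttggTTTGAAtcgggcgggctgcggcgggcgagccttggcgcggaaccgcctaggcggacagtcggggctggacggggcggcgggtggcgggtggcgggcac
Top2a (chr11:99024190-99024439, minus strand): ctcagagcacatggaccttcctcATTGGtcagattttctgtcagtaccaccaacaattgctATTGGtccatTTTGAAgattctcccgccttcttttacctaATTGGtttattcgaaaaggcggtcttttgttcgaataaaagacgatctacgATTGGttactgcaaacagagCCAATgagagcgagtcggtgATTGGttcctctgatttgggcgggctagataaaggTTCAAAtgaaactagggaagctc
Ect2 (chr3:27153879-27154128, minus strand): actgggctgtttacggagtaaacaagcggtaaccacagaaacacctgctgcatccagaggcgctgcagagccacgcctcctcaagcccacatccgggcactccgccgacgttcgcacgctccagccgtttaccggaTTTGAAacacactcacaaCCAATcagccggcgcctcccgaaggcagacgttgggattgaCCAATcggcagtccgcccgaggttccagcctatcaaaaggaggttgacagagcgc
Kif15 (chr9:122950831-122951080, plus strand): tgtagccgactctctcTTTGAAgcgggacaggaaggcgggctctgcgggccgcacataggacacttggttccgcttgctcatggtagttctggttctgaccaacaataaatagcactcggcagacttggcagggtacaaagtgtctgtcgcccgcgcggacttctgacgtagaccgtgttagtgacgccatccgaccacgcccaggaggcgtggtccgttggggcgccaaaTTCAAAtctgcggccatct
Knl1 (chr2:119046869-119047118, plus strand): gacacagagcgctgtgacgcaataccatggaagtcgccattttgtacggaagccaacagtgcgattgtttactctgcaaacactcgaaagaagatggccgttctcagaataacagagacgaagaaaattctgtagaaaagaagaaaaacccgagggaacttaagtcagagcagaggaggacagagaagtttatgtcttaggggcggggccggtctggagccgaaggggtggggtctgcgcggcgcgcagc

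Mki67, Top2a, Ect2 and Kif15 held TTTGAA in this window and Knl1 held neither string. The Mki67 promoter carried TTTGAA at 116 and 98 bases before the start with 3 CCAAT strings upstream, and the Top2a promoter carried 6 CCAAT strings. Of the genes in the table, 27025 in all, 18.26% had TTTGAA and 37.49% had CCAAT in at least 1 such window. Among mitosis genes (a list of spindle, kinetochore and chromosome condensation genes) 54 of 66 were matched, of which 33.33% had TTTGAA and 70.37% had CCAAT. Of the S phase list, 42 of 56 were matched, with 19.05% and 64.29%. The sarcomere list had 19.05% and 42.86% in 21 matched genes. A match of letters is a description, and no binding was measured.

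The 9 libraries held 2608067 to 5769630 UMIs in all. Summed over cycling nuclei, the depth was 71150, 266930 and 171401 UMIs in the control P6 libraries 1 to 3, 36213, 147610 and 99669 in P10 controls, and 45616 and 46755 in KO P10 libraries 1 and 3. Cycling nuclei had median totals of 1037 to 1572 UMIs against 797.5 to 1014 in non-cycling nuclei of the same libraries. Some libraries stood apart. KO P10 library 2 shared 465 barcodes with KO P10 library 1, against 0 to 12 for other pairs of libraries, and these were left out of library 2. In library 2 the hemoglobin and erythroid genes made up 10734 CPM (counts scaled to 1000000 UMIs) of its cardiomyocyte sum, against 1257 to 3032 CPM elsewhere. Of the cycling nuclei of KO P10 library 1, 6 had barcodes that also occurred in library 2, and they were kept. Leaving them out took the S phase and mitosis list UMIs of its cycling nuclei from 96 and 433 to 63 and 272. Gene comparisons were not refitted without these nuclei. Mitochondrially encoded genes, left out of all sums, took 1.56%, 0.463% and 0.453% of the UMIs of cycling nuclei in P6 controls, 23.9%, 5.60% and 10.8% in P10 controls, and 4.76% and 5.44% in P10 knockouts. The median share of Malat1 in cycling nuclei was 18.5%, 16.3% and 14.8%, then 8.74%, 10.9% and 9.70%, and 5.19% and 11.5%. Both measures separated the control ages without overlap. Sex-linked RNA also differed: Xist, transcribed from the inactive X chromosome, was at 2967, 4225 and 4253 CPM in the control P6 libraries, 1504, 0 and 0 CPM in P10 controls and 2425 and 0 CPM in P10 knockouts. Control P10 libraries 2 and 3 and KO P10 library 3 therefore differed in sex-linked RNA from the others, which touches the comparison of ages.

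The share of cardiomyocyte nuclei that were cycling was highest in P6 libraries 2 and 3, and the groups overlapped. In the control P6 libraries 42 of 924 (4.55%, exact 95% interval 3.30% to 6.09%), 158 of 1216 (13%, 11.2% to 15.0%) and 128 of 1168 nuclei (11%, 9.22% to 12.9%) were cycling. At control P10 the shares were 33 of 803 (4.11%, 2.85% to 5.72%), 93 of 1418 (6.56%, 5.33% to 7.97%) and 65 of 1446 (4.50%, 3.49% to 5.69%). Control P6 library 1 lay inside the range of control P10. The means were 9.50% ± 4.41 and 5.05% ± 1.32 (SD, n = 3), a difference of -4.44 percentage points that did not pass an exact permutation test over libraries (two-sided p = 0.20, smallest possible p 0.10). With every nucleus thinned to 500 UMIs the means were 4.19% and 2.49%. The intervals cover counting error only.

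In the knockouts, libraries 1 and 3 had 27 of 453 (5.96%, 3.96% to 8.55%) and 38 of 809 cycling nuclei (4.70%, 3.35% to 6.39%), both inside the control P10 range. KO P10 library 2 had 0 of 1205 (0%, 0% to 0.306%). In that library 1167 cardiomyocyte nuclei had no cycle UMI, 35 had 1 and 3 had 2, with 41 cycle UMIs in a sum of 1429516 UMIs. Its nuclei were no shallower than those of other libraries, with a median of 1023 UMIs. Among its 465 shared barcodes that were left out, 4 met the cycling definition. The KO P10 mean of 3.55% ± 3.14 (SD, n = 3) was 1.5 points under the control P10 mean (exact permutation p = 0.60). Without KO P10 library 2 the difference was 0.274 points in the other direction.

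The same thresholds applied to fibroblast nuclei (at least 3 UMIs over Col1a2, Col3a1 and Pdgfra) called 249 of 3058 cycling, and among endothelial and endocardial nuclei 47 of 506. Fibroblast shares were 4.53%, 16.4% and 13.8% in P6 controls, 1.95%, 9.23% and 5.65% in P10 controls, and 7.92%, 1.43% and 6.44% in P10 knockouts. Cardiomyocytes and fibroblasts both had their lowest control P6 share in library 1 and their lowest KO P10 share in library 2. The share in cardiomyocytes was 1.44 points lower on average and lower in 7 of 9 libraries (exact sign-flip permutation test, p = 0.0469, 0.281 after adjustment over the 6 comparisons of shares and ratios). Thinned to 500 UMIs it was 0.712 points lower (exact p = 0.0703). Endothelial shares were 17.7%, 29.1% and 10.9%, then 4.35%, 5.56% and 5.56%, and 6.25%, 2.42% and 2.74%, so the lowest P6 share was in library 3. They averaged 19.2% ± 9.20, 5.15% ± 0.697 and 3.8% ± 2.13 (SD, n = 3) in P6 controls, control P10 and KO P10, and the difference of 3.36 points from cardiomyocytes did not pass (exact sign-flip p = 0.199). The later endothelial shares rested on few nuclei, 1 of 23, 3 of 54 and 2 of 36 in controls and 1 of 16, 3 of 124 and 2 of 73 in knockouts. Thinned to 500 UMIs, the 3 endothelial means were 4.39%, 0% and 4.65%.

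**Figure D1:**
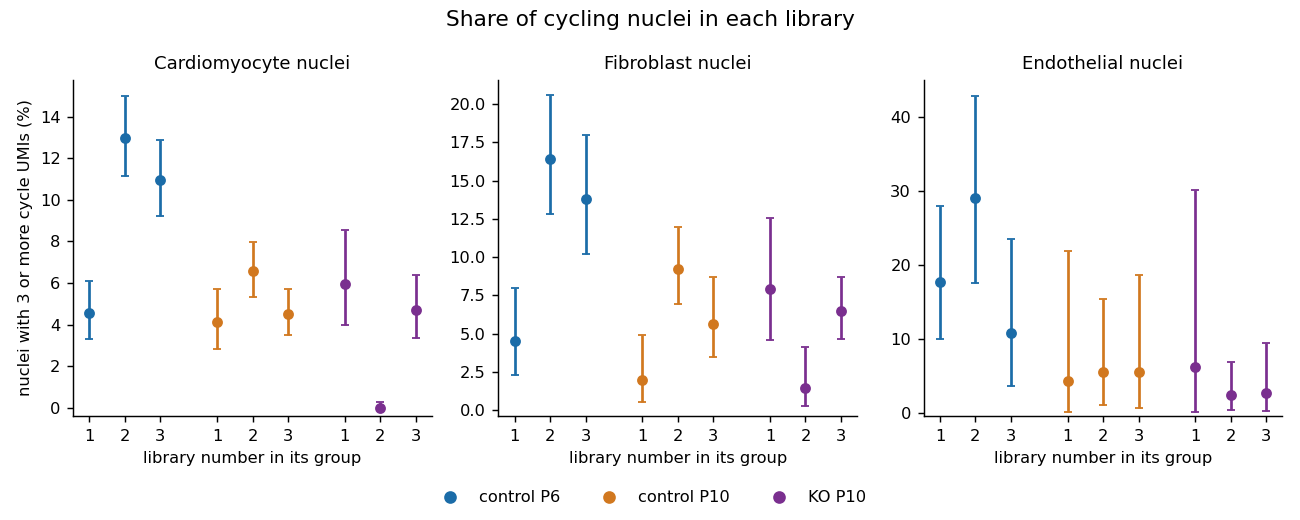
Share of nuclei with 3 or more cycle UMIs (%, vertical axis, its range differing between panels) in each library (horizontal axis, library number within its group), with exact 95% binomial intervals as bars, for cardiomyocyte, fibroblast and endothelial nuclei. Cardiomyocyte shares ran from 4.55% to 13% in P6 controls and from 4.11% to 6.56% in P10 controls, and KO P10 library 2 was at 0.

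Of the genes that define the class, Mki67, a coat protein of mitotic chromosomes, had a UMI in 76.5% of the 584 nuclei and Top2a, the topoisomerase that untangles replicated DNA, in 72.6%. Knl1, a scaffold of the outer kinetochore, was seen in 56.2%, Ect2, which activates RhoA for cytokinesis, in 47.8%, and Kif15, a spindle kinesin, in 41.3%. Neil3, a DNA glycosylase, Iqgap3, a scaffold protein, and Esco2, which joins sister chromatids, were seen in 35.4%, 31.5% and 31.3%. A nucleus held a median of 6 cycle UMIs from 4 genes, with a maximum of 46, and 23 nuclei passed on a single gene. Cycling fibroblasts had Mki67 and Top2a in 75.5% each and Ect2 in 16.9%. Ect2 made up 8.10% to 12.0% of the cycle UMIs of cycling cardiomyocyte nuclei and 0% to 7.79% of those of cycling fibroblasts, higher in cardiomyocytes in 8 of 8 libraries. These genes chose the nuclei, so their levels carry no test.

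The threshold of 3 cycle UMIs lay on a gradient. In 8 libraries the summed level of the mitosis list, which holds none of the defining genes, averaged 1171 CPM in nuclei without a cycle UMI, 5544 CPM in those with 2, just outside the class, 7849 CPM in those with 3, just inside it, and 18621 CPM in those with 10 or more. Sarcomere genes went from 62592 CPM at 0 cycle UMIs through 55622 CPM at 2 and 50290 CPM at 3 to 44355 CPM at 4 to 5, 43434 CPM at 6 to 9 and 47266 CPM at 10 or more, so the lowest level was not in the class with the most cycle UMIs. The S phase list was at 1079 CPM at 0 cycle UMIs, 2718 CPM at 2, 3355 CPM at 3 and 3633 CPM at 4 to 5. It was highest at 3868 CPM in nuclei with 6 to 9 and was at 2628 CPM in those with 10 or more. In all, 219 nuclei had 2 cycle UMIs and 109 had 3. Depth differed too, with median totals of 910 UMIs at 0 cycle UMIs, 914 at 2, 1069 at 3 and 1878 at 10 or more. The part of depth in this gradient was not tested.

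**Figure D2:**
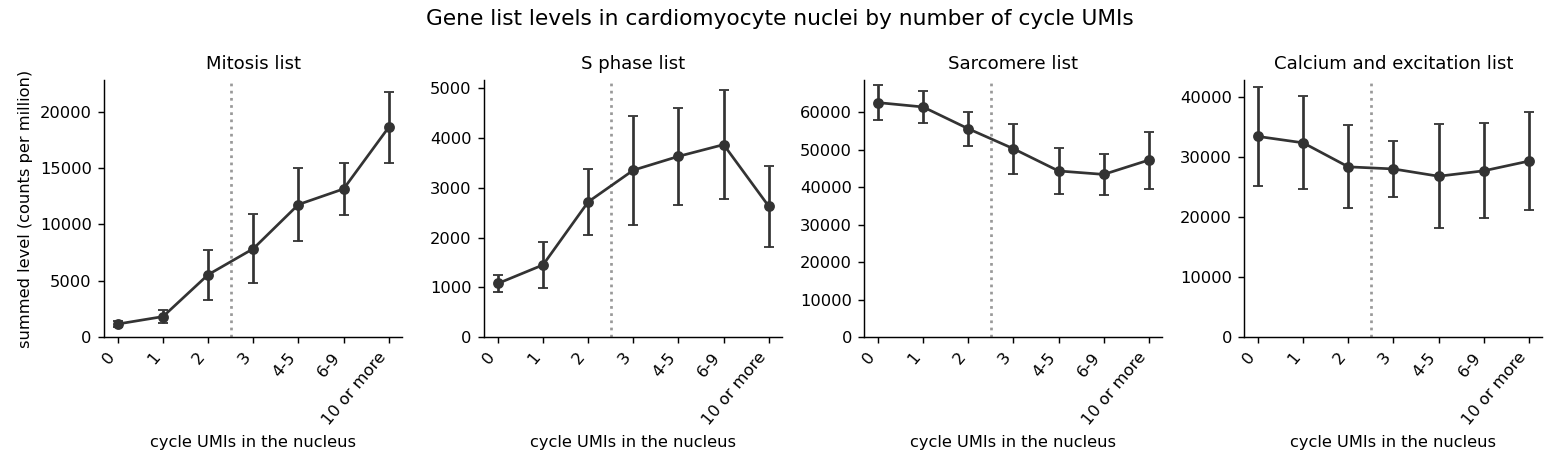
Summed level of 4 gene lists (CPM, vertical axes starting at 0) in cardiomyocyte nuclei by the number of cycle UMIs in the nucleus, as mean and SD over 8 libraries, with a dotted line at the threshold of the class. The mitosis list goes from 1171 to 18621 CPM and the sarcomere list from 62592 CPM through a low of 43434 CPM at 6 to 9 cycle UMIs to 47266 CPM.

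Most members held more mitosis than S phase transcripts. The median nucleus held 18 UMIs of the mitosis list and 3 of the S phase list, 502 of 584 nuclei had more mitosis than S phase UMIs, and 73 (12.5%) had more S phase UMIs. Nuclei with no mitosis UMI numbered 9 and those with no S phase UMI 61. The S phase to mitosis ratio per library, on a log2 scale, was -1.86, -2.16 and -2.38 in P6 controls, -2.22, -2.23 and -1.85 in P10 controls, and -2.17 and -1.80 in P10 knockouts. The groups overlapped, with differences of 0.0301 between ages (exact permutation p = 0.90) and 0.114 between genotypes (exact p = 0.50, smallest possible 0.10 for each). The defining genes include mitotic ones, so this balance is partly set by how nuclei were chosen.

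Whether cycling nuclei differ from other cardiomyocyte nuclei in the rest of their RNA was read from 2 sums per library, cycling and non-cycling, in the 8 libraries with members. Of 8022 genes tested, 1266 passed an adjusted p of 0.05 in edgeR's quasi-likelihood test with the library as a block (15.8%), 608 higher (7.58%) and 658 lower (8.2%) in cycling nuclei. DESeq2 gave 590 higher and 365 lower, and without a filter on low counts the split was 466 and 1321. Outside the defining genes and the cell cycle lists, 489 genes were higher and 651 lower. The median of all log2 differences was -0.11.

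Cell cycle genes were measured together with the genes that chose the nuclei, so their counts past the threshold are a description and support nothing. The mitosis list summed to 9492 to 16995 CPM in cycling nuclei against 682 to 2005 CPM in non-cycling nuclei, and all 64 of its tested genes were higher, with a median log2 difference of 3.51. Ckap2, a spindle protein, was at 419 to 909 CPM (median 799) in cycling and 4.79 to 46.3 CPM (median 28.7) in non-cycling nuclei. Cenpe, the kinesin that carries chromosomes along the spindle, was at 201 to 973 CPM (median 647) against 42.4 to 68.9 CPM (median 54.2). Nusap1, which bundles spindle fibres, was at 228 to 429 CPM (median 369) against 7.35 to 32.9 CPM (median 15.0). No library of either kind overlapped for these 3 genes.

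Of 17 tested cytokinesis genes, 10 were past the threshold, all higher: Anln, Cit, Racgap1, Kif23, Prc1, Aurkb, Kif20a, Diaph3, Cep55 and Stmn1. Anln, the anillin scaffold of the contractile ring, was at 232 to 387 CPM (median 314) against 12.0 to 30.6 CPM (median 16.3), and Racgap1, the partner of Ect2 at the midzone, at 45.6 to 339 CPM (median 241) against 9.80 to 25.3 CPM (median 13.3). Aurkb, the chromosomal passenger kinase, was at 22.8 to 102 CPM (median 59.1) against 0 to 7.66 CPM (median 2.95). The other 7 did not pass: Rhoa, Myh10, Rock1, Rock2, Sept7, Sept9 and Chmp4b, with log2 differences of -0.32 to 0.11.

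In the S phase list 28 of 44 tested genes were higher and 0 lower, with a median of 1.35. The log2 difference was 2.93 for Polq, a DNA polymerase of break repair, 2.66 for Clspn, a checkpoint adaptor at replication forks, and 2.49 for Atad2, a chromatin ATPase. Pcna, the sliding clamp of replication (0.79), Mcm6, a helicase subunit (0.24), and Gins1 (0.33) were among the 16 that did not pass. Among regulators 9 of 25 were higher. Foxm1, the factor that drives mitotic genes, had a log2 difference of 4.09, and Lin9 and Lin54, subunits of the complex that binds the CHR element, had 2.12 and 1.63. Wee1, the kinase that restrains Cdk1, had 1.82. The G1 cyclins Ccnd1 (-0.51) and Ccnd2 (-0.17), their kinase Cdk4 (-0.22) and the inhibitor Cdkn1a (0.02) did not pass.

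Outside those lists, the genes furthest up with at least 50 CPM included Pif1, a DNA helicase, Arhgef39, Ankle1, the spindle kinesin Kifc1, Lockd, the spindle protein Spag5, Parpbp, and Ska3 and Ska1, which hold kinetochores to microtubules. Their log2 differences were 4.19 to 5.08 and, as for the cell cycle lists, are a description. Lockd, a long noncoding RNA transcribed beside Cdkn1b, was at 547 to 1184 CPM (median 995) against 14.4 to 85.0 CPM (median 38.6) (log2 difference 4.32). Every cycling sum of Lockd lay above every non-cycling sum. Furthest down were, by the same rule, Art1, Scd4, Mllt6, Flcn, Wnk2, Fbxo32, Macrod1, Ptgds, Rchy1 and Ucp3, which fell by 1.39 to 2.23. Fbxo32, the muscle ubiquitin ligase atrogin-1, was at 0 to 76.9 CPM (median 30.4) against 22.6 to 238 CPM (median 82.7) (log2 difference -1.49, SE 0.29, edgeR adjusted p = 5.26e-06), lower in 8 of 8 libraries.

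Sarcomere genes were lower in cycling nuclei. Of 25 tested, 22 fell and 0 rose, against 8.2% of all genes falling, with a median log2 difference of -0.63. Myh6, the main myosin heavy chain of the adult mouse ventricle, was at 7079, 10929.7 and 12984 CPM in cycling nuclei of the control P6 libraries, 5378, 7883 and 7197 in P10 controls and 9226 and 9210.4 in P10 knockouts. Non-cycling nuclei of these libraries had 14408, 16320.0 and 18384, 11614, 12101 and 11829.7, and 13926 and 15139.5 CPM. It was lower in cycling nuclei in 8 of 8 libraries (log2 difference -0.73, SE 0.09, edgeR adjusted p = 7.19e-14).

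Tnnt2, cardiac troponin T, was at 3327 to 5738 CPM (median 4399) in cycling against 6567 to 12158 CPM (median 7433) in non-cycling nuclei, with no overlap (log2 difference -0.92, SE 0.09, edgeR adjusted p = 4.62e-21). Ttn, the giant spring protein titin, was at 5541 to 15557 CPM (median 9204) against 8067 to 28222 CPM (median 14049.7) and lower in 8 of 8 libraries (log2 difference -0.64, SE 0.09, edgeR adjusted p = 6.61e-11). The Z-disc genes Xirp2 (-1.15) and Ldb3 (-0.90), the M-band gene Myom2 (-1.06) and myosin-binding protein Mybpc3 (-0.89) fell as well. Myom1 (-0.22, edgeR adjusted p = 0.2), Myoz2 (-0.26, 0.137) and Neb (-0.46, 0.42) did not pass. The 4 cardiomyocyte genes of the definition were lower as well, at a mean of 12722 CPM in cycling and 16710 CPM in non-cycling nuclei, in 8 of 8 libraries, with a median log2 difference of -0.53 that is a description. Cycling nuclei were deeper than the rest, and the sarcomere count was 22 of 24 against non-cycling nuclei matched on UMI total, 24 of 24 with all nuclei thinned to 500 UMIs, and 22 of 25 with at least 6 cardiomyocyte UMIs required in both kinds of nucleus.

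Genes of calcium handling and excitation followed, with 15 of 24 lower and 1 higher (against 8.2% and 7.58% of all genes) and a median of -0.57. Atp2a2, the pump that refills the sarcoplasmic reticulum, was at 659 to 1720.0 CPM (median 1391) against 1198 to 3119 CPM (median 2032) (log2 difference -0.69, SE 0.10, edgeR adjusted p = 3.87e-10). It was lower in 8 of 8 libraries, though the ranges over libraries overlapped. Gja1, the gap junction protein connexin 43 (-0.82), Kcnip2, a subunit of the transient outward potassium channel (-0.94), and Pln, the inhibitor of the calcium pump (-0.65), fell too. Itpr2, the inositol trisphosphate receptor of cardiomyocytes, rose, at 57.3 to 259 CPM (median 162) against 62.8 to 139 CPM (median 110.4) and higher in 7 of 8 libraries (log2 difference 0.63, SE 0.17, edgeR adjusted p = 0.00231). Itpr2 did not pass without KO P10 library 1, without the filter on low counts or with nuclei thinned to 500 UMIs (adjusted p 0.501).

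Genes of energy supply were lower to differing degrees. In the fatty acid oxidation list 17 of 30 fell and 0 rose (against 8.2% and 7.58% of all genes), with a median of -0.45. The number that fell was 12 of 30 by DESeq2 and 13 of 25 against matched nuclei. Cpt1b, which admits fatty acids to the muscle mitochondrion, was at 38.2 to 265 CPM (median 91.7) against 83.3 to 379.8 CPM (median 218) and lower in 8 of 8 libraries (log2 difference -0.80, SE 0.16, edgeR adjusted p = 1.56e-05). Ppara, the receptor that switches on this pathway, was lower in 7 of 8 (log2 difference -0.80, SE 0.14, edgeR adjusted p = 2.96e-07), and Slc27a1 (-1.10), Mlycd (-1.72) and Ucp3 (-1.39) fell. Of the respiratory chain and TCA cycle 9 of 45 fell (against 8.2% of all genes), with a median of -0.24 against -0.11 for all genes, and DESeq2 called 3. Of the estrogen-related receptors and their partners 7 of 16 fell (against 8.2% of all genes). Among them were Esrra (log2 difference -1.11, SE 0.24, edgeR adjusted p = 6.74e-05) and Esrrg (log2 difference -0.32, SE 0.11, edgeR adjusted p = 0.0237). The coactivators Ppargc1a (-0.39) and Ppargc1b (-0.60) and the mitochondrial creatine kinase Ckmt2 (-0.64) were also among them. The call of Esrrg was lost with DESeq2 (0.0608), with nuclei thinned to 500 UMIs (0.127) and without control P6 library 1 (0.0514) or control P10 library 2 (0.0711). Esrra rested on 1, 21, 10, 2, 13, 1, 0 and 0 UMIs in the 8 sums of cycling nuclei.

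The fetal and neonatal list was also mostly lower: 8 of 17 genes fell and 1 rose (against 8.2% and 7.58% of all genes). Negative differences were seen in 14 of the 17, and the median was -0.48. Ncam1, a neural cell adhesion molecule also made by immature heart muscle, was at 269 to 471 CPM (median 377) in cycling and 95.2 to 198 CPM (median 169) in non-cycling nuclei, with no overlap (log2 difference 1.18, SE 0.14, edgeR adjusted p = 1.85e-16). Nppa, atrial natriuretic peptide (-0.89), and Myh7b, a slow-type myosin (-1.34), fell, in 8 of 8 libraries each.

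Of signals known to hold or release cardiomyocyte proliferation, 2 of 31 rose and 9 fell (against 7.58% and 8.2% of all genes). Igf2bp3, an RNA-binding protein of fetal growth, was at 72.9 to 201 CPM (median 105) against 30.3 to 127 CPM (median 69.9) and higher in 7 of 8 libraries (log2 difference 0.91, SE 0.19, edgeR adjusted p = 3.23e-05), with an adjusted p of 0.0743 when nuclei were thinned to 500 UMIs. Erbb4, the neuregulin receptor, passed (log2 difference 0.28, SE 0.10, edgeR adjusted p = 0.0304) and was higher in 5 of 8. It did not pass without control P6 library 3, control P10 library 2 or 3 or KO P10 library 3 (adjusted p 0.0534 to 0.267), and without KO P10 library 1 the difference was 0.06 (0.864). The difference was 0.01 without a filter on low counts (0.972) and 0.17 when thinned (0.382). At 4 cycle UMIs, in a fit that also lacked KO P10 library 1, it was 0.15 (0.496). Insr, the insulin receptor (-0.59), Hif1a, the hypoxia factor (-0.76), and Park2, the mitophagy ligase parkin (-0.95), fell. Yap1 (0.37, edgeR adjusted p = 0.287), the effector of Hippo signalling, Meis1 (-0.08, 0.781) and Gata4 (-0.19, 0.287) did not pass.

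**Figure D3:**
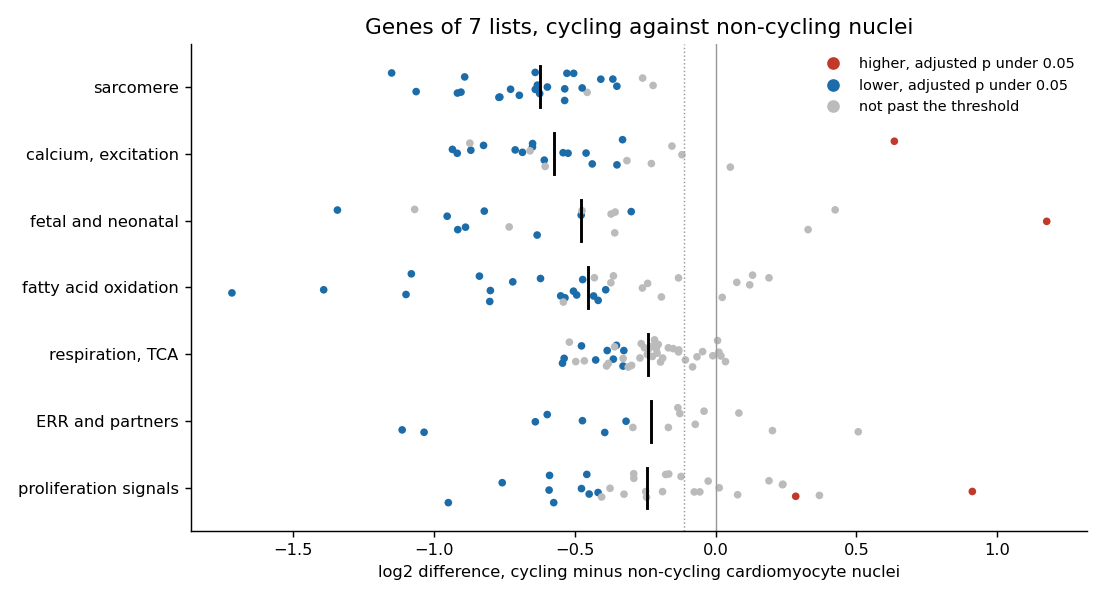
Log2 difference between cycling and non-cycling cardiomyocyte nuclei (horizontal axis) of each tested gene in 7 lists, coloured by whether it passed an adjusted p of 0.05, with black bars at list medians, a solid line at 0 and a dotted line at the median of all genes. Of 25 sarcomere genes 22 were lower, and the list median was -0.63 against -0.11 for all genes.

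Trp63 and Neat1, named below for other comparisons, also stood apart here. Trp63, a transcription factor of the p53 family, was at 30.3 to 439 CPM (median 187) in cycling and 19.0 to 75.1 CPM (median 37.3) in non-cycling nuclei and higher in 8 of 8 libraries (log2 difference 2.40, SE 0.20, edgeR adjusted p = 1.18e-31). Neat1, a nuclear long noncoding RNA that builds paraspeckles, was at 296 to 2484 CPM (median 819) against 783 to 4859.6 CPM (median 1890.2) and lower in 8 of 8 (log2 difference -1.10, SE 0.11, edgeR adjusted p = 1.27e-22).

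**Figure D4:**
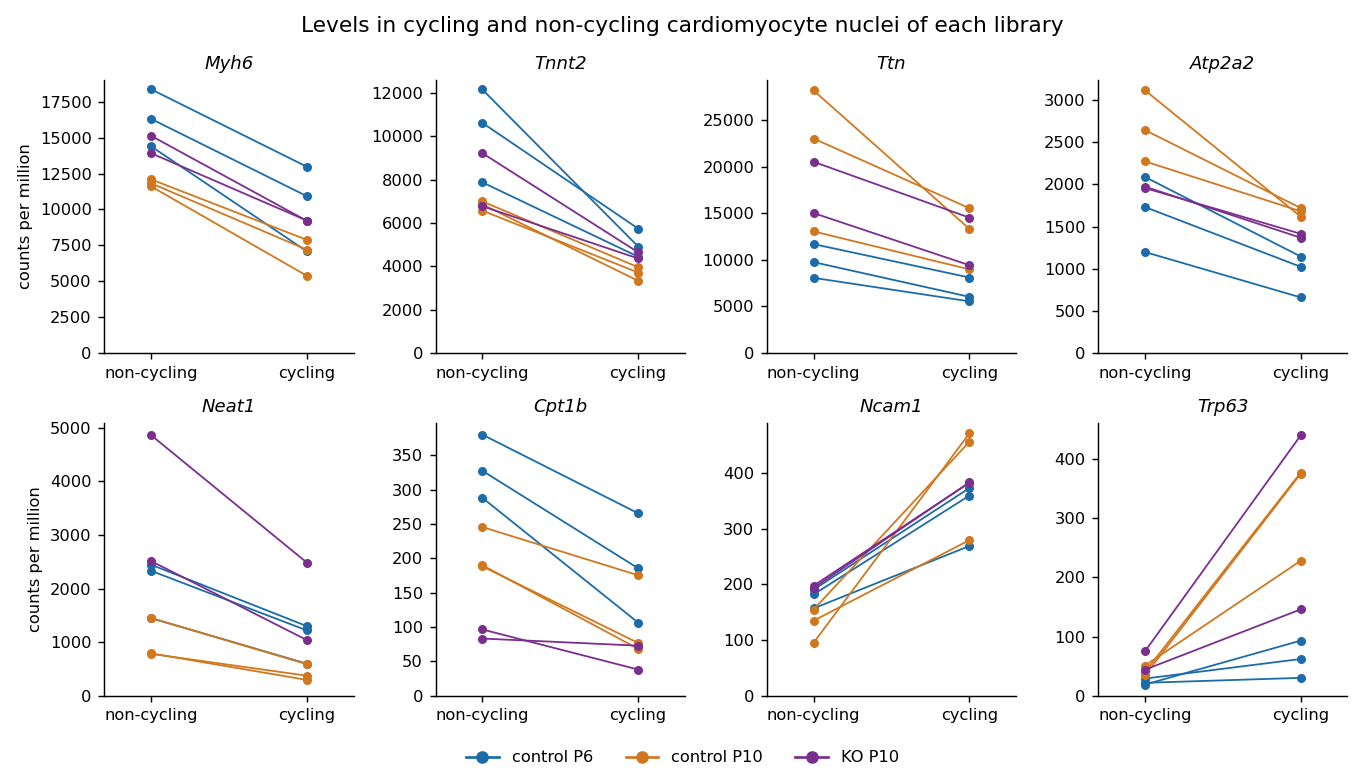
Level (CPM, vertical axes starting at 0) of 8 genes in non-cycling and cycling nuclei, each line joining the 2 sums of a library, coloured by group. Myh6, Tnnt2, Ttn, Atp2a2, Cpt1b and Neat1 were lower in cycling nuclei in all 8 libraries, and Ncam1 and Trp63 were higher in all 8.

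Transcripts of other cells, apart from erythroid genes, were low in both kinds of nucleus. The list of 10 fibroblast genes summed to 281 to 1315 CPM in cycling and 483 to 1729 CPM in non-cycling nuclei, lower in cycling nuclei in 8 of 8 libraries. Its 9 tested genes had 3 lower and 0 higher (against 8.2% and 7.58% of all genes). Every nucleus was held to at most 2 UMIs over the other-cell genes of the definition, and cycling nuclei were deeper. The part of this cap in the lower levels of other-cell lists was not tested. Endothelial genes (363 to 1223 against 510 to 998 CPM) were higher in cycling nuclei in 2 of 8 libraries, and pericyte and smooth muscle genes in 2 of 8. Erythroid genes had the highest sums of these lists, at 994 to 2867 against 1257 to 3032 CPM, and were higher in cycling nuclei in 1 of 8. Macrophage and lymphocyte genes were higher in 7 of 8 (21.4 to 249 against 55.7 to 165 CPM), with 0 of 3 tested genes passing. Wt1, Sox10 and Vtn had no UMI in any cycling nucleus. Of cycling nuclei 0% to 5.06% per library were among the top 5% of Scrublet doublet scores, against 0.442% to 2.74% of all cardiomyocyte nuclei.

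How cycling nuclei of controls changed from P6 to P10 was tested on their sums alone, where 2284 genes had enough counts. Of these 204 passed (8.93%), 87 higher (3.81%) and 117 lower (5.12%) at P10. The count fell to 40 without control P10 library 3, to 72 without control P6 library 3 and to 96 without control P6 library 2, and DESeq2 called 88 (44 higher, 44 lower). Of the 46 named genes that passed, 12 passed in each of the 6 fits that left out 1 control library: Kcnd2, Cacna1c, Fgf14, Tnnc1, Tnni1, Frmd5, Gas5, Snhg3, Vwa1, Clstn2, Pdzrn4 and Trp63. Any other gene named for this comparison failed to pass in at least 1 such fit or had too few counts to be tested in all 6.

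Other measures of these nuclei moved with age. The fibroblast list summed to 281, 408 and 508 CPM in cycling nuclei of P6 controls and 884, 1043 and 1013 CPM in P10 controls, without overlap, and to 508, 483 and 560 and then 1172, 1135 and 1308 CPM in non-cycling nuclei. Of its 5 genes tested by age in cycling nuclei 5 had positive differences (median 0.82) and 0 passed. The mitochondrial and Malat1 shares given above also separated the ages. The part of these measures in the differences below was not tested.

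Mitosis genes were on the low side at P10. Of 45 tested genes of the list 5 fell (against 5.12% of all genes) and 0 rose, 40 had negative log2 differences, and the median was -0.54 against -0.04 for all genes. The whole list summed to 16374, 15787 and 16995 CPM in P6 controls and 14415, 13996 and 12712 CPM in P10 controls. In P10 knockouts it was at 9492 and 11100.4 CPM, and the 3 groups did not overlap. Cycling fibroblasts had 16430, 17648 and 15624 CPM in P6 controls and 15017, 15466 and 13564 CPM in P10 controls, also without overlap. In P10 knockouts they had 13602, 12090.5 and 17021 CPM, which overlapped both control groups. Control P10 library 1 held only 4 cycling fibroblasts and KO P10 library 2 only 3. In cycling cardiomyocyte nuclei the defining cycle genes summed to 6423, 4911 and 5251 CPM in P6 controls and 6600, 4532 and 5067 CPM in P10 controls. They summed to 3727 and 4449 CPM in P10 knockouts, below every control library. Knockout members thus held fewer of the transcripts that chose them, and the part of this in their mitosis sums was not tested. Birc5, survivin of the chromosomal passenger complex, was at 186, 303 and 322 CPM in P6 controls and 91.2, 110.4 and 28.8 CPM in P10 controls, without overlap (log2 difference -1.98, SE 0.41, edgeR adjusted p = 0.00193). Cdca3, a trigger of mitotic entry, was at 213, 178 and 265 and then 91.2, 71.4 and 76.9 CPM (log2 difference -1.64, SE 0.40, edgeR adjusted p = 0.00696).

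Cdc25c, the phosphatase that activates Cdk1 (-1.61, edgeR adjusted p = 0.00865), Ube2c, a ubiquitin-conjugating enzyme of mitotic exit (-1.54, 0.0186), and Smc4, a condensin subunit (-0.87, 0.0445), also fell. Cdca3 and Cdc25c did not pass without control P6 library 3 (0.0813 and 0.0880), nor Smc4 without control P6 library 2 or 3 (0.108 and 0.273). Ube2c did not pass without control P10 library 1 or 2 (0.0538 and 0.0553). With DESeq2 Cdca3, Cdc25c, Ube2c and Smc4 did not pass (0.0555 to 0.113), nor did they without a filter on low counts. Without control P10 library 3 none of the 5 passed (adjusted p 0.0617 for Birc5 and Cdca3, 0.0722 for Cdc25c, 0.0812 for Ube2c and 0.303 for Smc4). Of 12 cytokinesis genes and 10 S phase genes tested, 0 passed. Anln differed by 0.27 (adjusted p = 0.604) and Prc1 by -0.65 (0.152). Mki67, a defining gene, was at 1544, 1143 and 1135 and 1413, 1253 and 1768 CPM, and Top2a at 1610.1, 1087 and 1101 and 912, 864 and 836 CPM.

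Of 19 tested genes of calcium handling and excitation 5 rose and 0 fell between these ages (against 3.81% and 5.12% of all genes). Kcnd2, a pore subunit of the transient outward potassium channel, was at 532, 416 and 305 CPM in P6 controls and 1777, 1506 and 2969 CPM in P10 controls, without overlap (log2 difference 2.21, SE 0.30, edgeR adjusted p = 5.72e-06). Non-cycling nuclei of the same libraries had 578, 361 and 241 and 3853, 1792 and 2662 CPM. Cacna1c, the L-type calcium channel, was at 2329, 1942 and 1406 and then 5697, 4351 and 5429 CPM (log2 difference 1.33, SE 0.26, edgeR adjusted p = 0.00113), and Fgf14, a partner of sodium channels, at 186, 136 and 96.0 and 706, 292 and 557 CPM (log2 difference 1.75, SE 0.35, edgeR adjusted p = 0.00126). All 3 genes passed in each leave-one-out fit. Cacnb2, a channel subunit (0.85), did not pass when control P10 library 1 or 3, or P6 library 2 or 3, was left out (adjusted p 0.0726 to 0.184). Jph2, a protein of the dyad (0.93), did not pass in the 5 fits that left out a control library other than control P10 library 2 (0.0664 to 0.202), with DESeq2 (0.163), without a filter on low counts (0.326), at 4 cycle UMIs (0.0981) or with a replicate block (0.0576), and its difference was 0.23 when thinned (0.757).

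Of 12 tested fetal and neonatal genes 3 fell (against 5.12% of all genes) and 0 rose. Of 23 sarcomere genes 1 fell and 2 rose (against 5.12% and 3.81%). Tnnc1, slow and cardiac troponin C, was at 2076, 3679.8 and 3569 CPM in P6 controls and 182, 916 and 557 CPM in P10 controls (log2 difference -2.55, SE 0.35, edgeR adjusted p = 3.24e-05), and 3524, 4985 and 5400.2 and 611, 1197 and 971 CPM in non-cycling nuclei. Tnni1, the slow skeletal troponin I that the fetal heart uses, was at 412, 409 and 559 and 45.6, 162 and 38.4 CPM (log2 difference -2.40, SE 0.43, edgeR adjusted p = 0.00102). Neither gene's groups overlapped, and both passed in each leave-one-out fit. Ttn rose (log2 difference 0.82, SE 0.26, edgeR adjusted p = 0.0371) and so did Pdlim5 (1.31), while 16 of 23 sarcomere genes had negative differences. Pdlim5 did not pass without control P10 library 1 (0.0713) or when thinned (0.0580). Ttn did not pass without any 1 of control P6 libraries 1 and 3 and control P10 libraries 1 and 3 (adjusted p 0.0767 to 0.245). Myh7b (-1.32) and Tpm2 (-2.32) fell, and neither passed when control P10 library 3, or P6 library 2 or 3, was left out (0.0636 to 0.105 and 0.136 to 0.217) or with DESeq2 (0.0674 and 0.0856).

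In the respiratory chain and TCA cycle 4 of 39 fell (against 5.12% of all genes). Among them were Cox7c, a subunit of complex IV (log2 difference -1.93, SE 0.42, edgeR adjusted p = 0.00289), and Pdhb of pyruvate dehydrogenase (log2 difference -1.74, SE 0.40, edgeR adjusted p = 0.00446). These 2 genes had edgeR adjusted p of 0.0591 and 0.0556 without control P10 library 3. Of 16 fatty acid oxidation genes 0 passed. Esrrg was at 492, 852 and 441 CPM in P6 controls and 1504, 1013 and 1509 CPM in P10 controls (log2 difference 1.02, SE 0.29, edgeR adjusted p = 0.0198), and did not pass without control P6 library 1 or 3 (0.0549 and 0.157), without control P10 library 3 (0.121) or without a filter on low counts (0.0786). The hemoglobin genes Hba-a1 (-1.74) and Hba-a2 (-1.99) fell, at 652, 219.6 and 299 and 68.4, 182 and 67.3 CPM for Hba-a1, and these are red cell transcripts whose part in other differences was not tested.

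Frmd5, a membrane-cytoskeleton protein, was among the 10 genes furthest down, at 585, 685 and 649.5 CPM in P6 controls and 45.6, 123 and 96.1 CPM in P10 controls (log2 difference -2.83, SE 0.33, edgeR adjusted p = 3.84e-07). With it were Tmigd1, Rpl36, Vwa1, Srpk3, Selenoh, Gas5, Tsix, Tnnc1 and Snhg3, with log2 differences of -4.13 to -2.51. Gas5 and Snhg3 are host transcripts of small nucleolar RNAs. Rpl36 has near-identical copies, so its count is uncertain. Tsix overlaps Xist on the other strand, the use of strand is not stated, and Xist differed between these libraries, so reads of the 2 genes cannot be told apart.

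Furthest up besides Y-linked genes were Clstn2, Rgs7, Pdzrn4, Trp63, Pid1, Lrrc3b and Plcl1, with log2 differences of 2.40 to 3.17. Trp63 was at 93.1, 30.3 and 62.1 CPM in P6 controls and 228, 377 and 375 CPM in P10 controls (log2 difference 2.51, SE 0.42, edgeR adjusted p = 0.000247), against 19.0, 21.9 and 29.1 and 51.1, 40.1 and 34.6 CPM in non-cycling nuclei. The Y-linked Eif2s3y, Ddx3y and Uty also passed, from libraries 2 and 3 of control P10: Eif2s3y was at 0, 0 and 0 and 0, 143 and 57.7 CPM. The part of sex in the other differences was not tested.

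Whether the change with age differed between cycling and non-cycling nuclei was tested as an interaction. Of 8022 genes 1 passed in edgeR (0.0125%), with 335 at an unadjusted p under 0.05, and DESeq2 also called 1. On simulated data this test recovered 10 of 50 genes changed by -2 on the log2 scale and 4 of 50 changed by 2. It recovered 0 of 50 changed by -1 and 0 of 50 changed by 1, so the low count does not show that the effects were alike. The gene was Nek3, a kinase of the NIMA family (chr8:22128283-22166435, minus strand, GENCODE vM21 on mm10). It was at 53.2, 41.6 and 50.8 CPM in cycling nuclei in P6 controls and 251, 175 and 307 CPM in P10 controls, and at 20.1, 11.0 and 9.68 and 6.38, 6.22 and 13.4 CPM in non-cycling nuclei. It rested on 4, 11 and 9 UMIs and on 11, 27 and 32 UMIs in cycling nuclei, and it did not pass when any 1 of the 6 control libraries was left out (adjusted p 0.0788 to 0.618).

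Genotype was compared between the 2 KO P10 libraries with members and the 3 control P10 libraries, which also serve as the later group of the age comparison. The targeted genes came first. Esrra had 2, 13 and 1 UMIs in cycling nuclei in P10 controls and 0 and 0 in P10 knockouts, too few for the fit, and 105, 106 and 74.7 CPM against 2.45 and 26.0 CPM in non-cycling nuclei. Esrrg was at 1504, 1013 and 1509 CPM in P10 controls and 857 and 592 CPM in P10 knockouts (log2 difference -0.76, SE 0.35, edgeR adjusted p = 0.392). The groups did not overlap for Esrrg, the difference did not pass, and which exons were deleted is not given in the sources used here.

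Of 2284 genes 11 passed in edgeR (0.482%), 8 higher (0.35%) and 3 lower (0.131%) in knockouts. With 2 knockout libraries each call leans on single libraries: 2 genes passed without KO P10 library 3, 5 without KO P10 library 1, 2 without control P10 library 3 and 39 without control P10 library 1. DESeq2 called 6. Each called gene given with a value below failed to pass in at least 1 of these leave-one-out fits, and Thsd7a, Rxfp1, Mpped2, Atp11a, Kcnn2 and Ndrg4 also failed at 4 cycle UMIs (adjusted p 0.156 to 0.546).

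Among the genes higher in knockout cycling nuclei, Eln, elastin, was at 68.4, 51.9 and 76.9 CPM in P10 controls and 292 and 554 CPM in P10 knockouts (log2 difference 2.84, SE 0.46, edgeR adjusted p = 0.00034), with adjusted p of 0.174 without KO P10 library 3. Thsd7a, a membrane protein with thrombospondin repeats, was at 91.2, 104 and 76.9 and 675 and 382 CPM (log2 difference 2.64, SE 0.43, edgeR adjusted p = 0.00034), 0.149 without KO P10 library 1. Rxfp1, the relaxin receptor, was at 45.6, 77.9 and 19.2 and 401 and 248 CPM (log2 difference 2.76, SE 0.52, edgeR adjusted p = 0.00245), and had 0.278 without KO P10 library 1. None of these 3 genes overlapped between groups, which is a description, as they were picked for large differences past the threshold. In non-cycling nuclei Eln was at 199.5, 232 and 137 and 326 and 814 CPM. The fibroblast list also differed by genotype in cycling nuclei, at 884, 1043 and 1013 CPM in P10 controls and 1315 and 1069 CPM in P10 knockouts. Its 5 tested genes all had positive differences (median 0.29) and 0 passed. The part of fibroblast transcripts in the level of Eln and of other genes was not tested.

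Neat1 (log2 difference 2.13, SE 0.37, edgeR adjusted p = 0.00191) and Acta1, skeletal actin (log2 difference 3.03, SE 0.66, edgeR adjusted p = 0.0229), rose as well, at 0, 58.4 and 48.0 and 128 and 554 CPM for Acta1, and both lost the call without KO P10 library 3 (0.285 and 0.672). Mpped2 (2.06), Atp11a (1.95) and Gnas (1.45) completed the 8 genes, and none of the 3 passed without KO P10 library 3. Lower were Kcnn2, a small-conductance calcium-activated potassium channel, at 1003, 584 and 1038 and 182 and 248 CPM (log2 difference -1.88, SE 0.41, edgeR adjusted p = 0.0198), and Ndrg4, which heart muscle growth needs in zebrafish, at 114, 221 and 154 and 18.2 and 0 CPM (log2 difference -3.95, SE 0.95, edgeR adjusted p = 0.0348). Without KO P10 library 3 they had 0.154 and 0.285. The other lower gene was the predicted gene model Gm30382, named here after its values were seen.

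No gene of the metabolic lists passed. Of 39 respiratory and TCA genes tested 37 had negative differences, with a median of -0.81 against -0.005 for all genes, and 0 passed. The sum of that list was 5882, 12953 and 10936 CPM in P10 controls and 6204 and 5924.5 CPM in P10 knockouts, with control P10 library 1 below both knockouts. The fatty acid oxidation sum overlapped too, at 4280.2, 6558 and 5719 and 5459 and 4342 CPM. In the fatty acid oxidation list the median was -0.60 over 16 genes, and in the list of estrogen-related receptors and partners -0.80 over 8. Ckmt2 was at 159.5, 889.6 and 865 CPM in P10 controls and 91.2 and 191 CPM in P10 knockouts (log2 difference -2.14, SE 0.53, edgeR adjusted p = 0.0579), and Ppara at 273, 299 and 375 and 91.2 and 95.5 CPM (log2 difference -1.64, SE 0.48, edgeR adjusted p = 0.124). Ppara did not overlap between groups, and neither gene passed. Nppa was at 22.8, 266 and 28.8 and 1167 and 5064 CPM (log2 difference 4.68, SE 1.21, edgeR adjusted p = 0.256), not past the threshold with a wide spread within both groups.

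Of 45 mitosis genes 32 had negative differences in knockouts (median -0.38) and 0 passed. The sums of the defining cycle genes, given above, were lower in knockouts as well, and their part in this was not tested. No gene passed the test of whether the genotype effect differed between cycling and non-cycling nuclei in edgeR (0.0%), with 356 genes at an unadjusted p under 0.05, and DESeq2 called 0 with 203 at an unadjusted p under 0.05. On simulated data this test rarely recovered genes that had been changed, so the count of 0 does not show that the effects were alike.

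**Figure D5:**
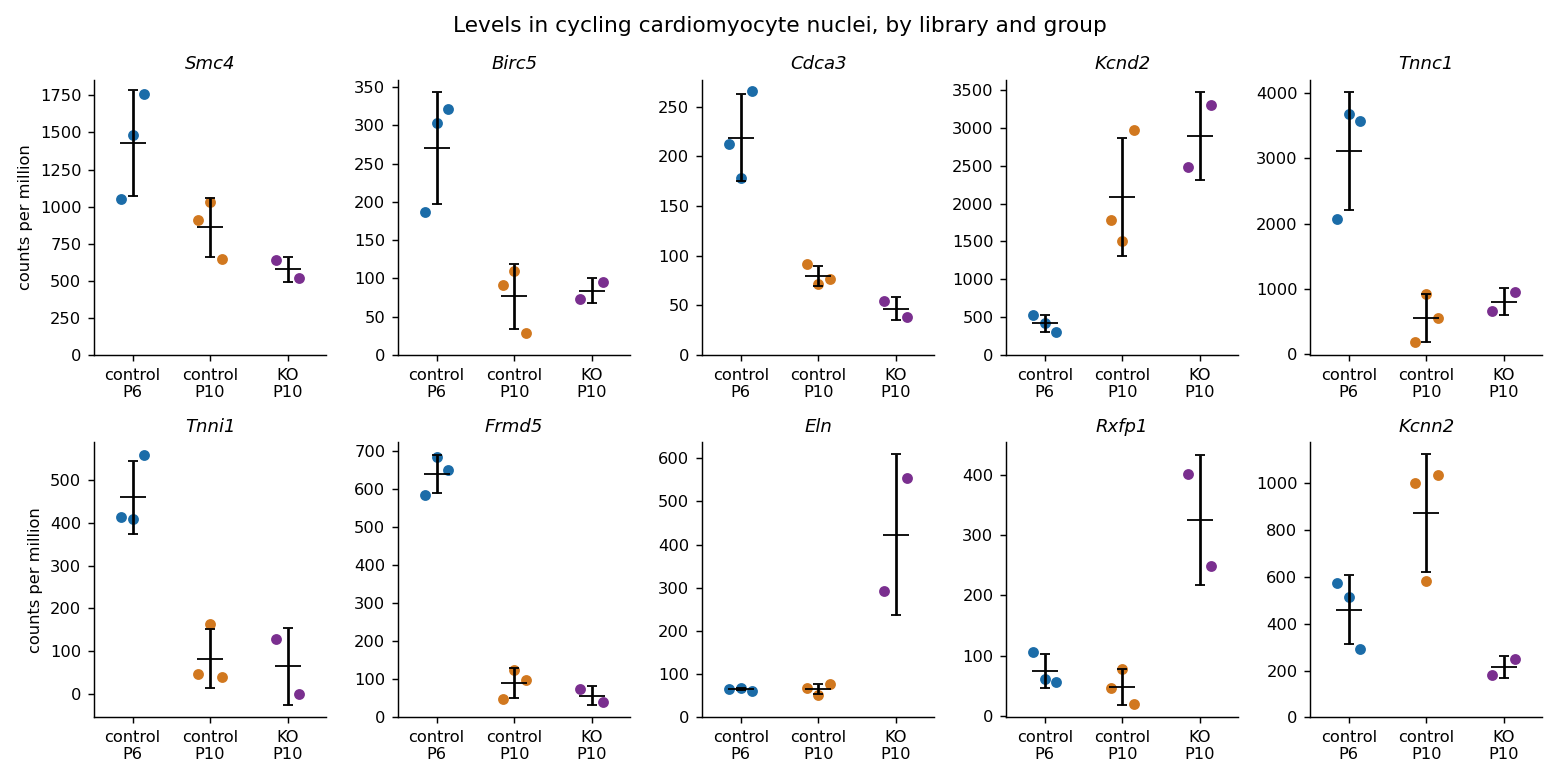
Level (CPM, vertical axes) of 10 genes in cycling nuclei of each library, by group, with points for libraries and black marks for the group mean and SD (3, 3 and 2 libraries). Kcnd2 was higher and Tnnc1, Tnni1 and Frmd5 lower in every control P10 library than in every control P6 library, and Eln and Rxfp1 were higher and Kcnn2 lower in both KO P10 libraries than in P10 controls.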

How the data were processed

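RNA of single nuclei from 9 ventricle libraries was deposited as UMI counts in whole numbers. Per the submitters' processing notes, the authors used STAR 2.5.2a and the mm10 build, and per the names of the files the counts include exonic and intronic reads. The counter, annotation, use of strand and rule for keeping barcodes are not given in the sources used here, so reads of overlapping genes cannot be told apart.

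Groups came from the labels. The class and its gene lists were chosen with earlier results of these data known. Raw counts were summed per library over nuclei of a kind, and sums of at least 20 cycling nuclei were fitted with edgeR 4.0.16 in R 4.3.3 (TMM factors, filterByExpr, robust quasi-likelihood F test, two-sided, Benjamini-Hochberg over all genes tested, threshold 0.05). Comparisons within cycling nuclei used all 8 such libraries and no term beside the group, and those of cycling with non-cycling nuclei kept each library as a block. CPM are counts scaled to 1000000 UMIs outside mitochondrially encoded genes, scaled with TMM factors for single genes and unscaled for list sums, and each SE is that of the fitted log2 difference. Shares and ratios were compared with exact permutation tests in scipy 1.17.1, and intervals are exact binomial (Clopper-Pearson). No doublets were removed in the main analysis, and leaving out the highest 5% of Scrublet scores (scanpy 1.11.5) was an alternative. Other alternatives were DESeq2 1.42.0, its size factors, no filter, 2 or 4 cycle UMIs and thinning to 500 UMIs. So were a replicate block, leaving out each library and, for shares and ratios only, treatments of shared barcodes. At 4 cycle UMIs KO P10 library 1 fell under 20 cycling nuclei and left the gene fits. Matching non-cycling nuclei on depth (3 per cycling nucleus), requiring 6 cardiomyocyte UMIs and keeping shared barcodes were chosen after seeing the data. The genes named are list members and, per comparison and direction, the 10 with the largest log2 difference past the threshold with at least 50 CPM in the higher group, outside the defining genes, predicted gene models and, for cycling against non-cycling, the cell cycle lists. Nek3 was named as the only call of its comparison. Where groups of libraries are said not to overlap for a gene or list, this describes the values. The share of all tested genes without overlap is not given here. Some genes that the rule selects are not reported here. The fits were tested on simulated data. Positions of genes are from GENCODE vM21.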

Additional observations from a re-analysis of the deposited data

Results flagged for a closer look

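Nek3 was the gene whose change with age differed between cycling and non-cycling cardiomyocyte nuclei by a test of the difference itself, with an interaction of 2.80 on the log2 scale (SE 0.60, edgeR adjusted p = 0.0271). In cycling nuclei it rose from P6 to P10 (log2 difference 2.18, SE 0.40, edgeR adjusted p = 0.000702), and in KO P10 libraries 1 and 3 it was at 36.5 and 57.3 CPM. The adjusted p of the interaction ranged up to 0.997 over the alternatives, with nuclei thinned to 500 UMIs. Ckap2, a mitosis gene, lies next to it on the same strand (chr8:22168160-22185819, minus strand) and was at 772, 825 and 842 CPM at control P6 and 501, 909 and 884 CPM at control P10 in cycling nuclei. The use of strand is not stated and reads that run from one gene into the other were not separated.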

How the results depend on the processing

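Depth limits the comparisons within cycling nuclei, whose sums held 36213 to 266930 UMIs and allowed tests of 2284 genes. The count of genes called between cycling and non-cycling nuclei stayed within 1.5 times its main value under every alternative, at 1121 to 1456 when 1 library was left out. The age comparison gave 88 calls with DESeq2, 105 without a filter on low counts, 85 with nuclei thinned to 500 UMIs and 40 to 246 with 1 library left out (96 and 72 without control P6 library 2 or 3, 40 without control P10 library 3). The genotype comparison gave 6 with DESeq2, 6 at 2 cycle UMIs, 7 when thinned, and 39 and 2 without control P10 library 1 or 3. Its fits at 4 cycle UMIs, without KO P10 library 1 and without KO P10 library 3 each held 1 knockout library. For the age interaction, DESeq2 size factors gave 2 calls, no filter, 4 cycle UMIs, thinning and depth matching gave 0 each, and leaving out 1 library 0 to 3. The genotype interaction gave 1 call at 2 cycle UMIs and 0 when any 1 library was left out. The cause of these changes was not tested.

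The share of cycling nuclei differed between ages by -6.92 to -2.70 points with 1 library left out, and between genotypes by -2.71 to 0.274. Cardiomyocytes against fibroblasts gave -0.702 points at 4 cycle UMIs, -0.712 thinned, -1.48 without high Scrublet scores and -1.89 to -1.20 with 1 library left out, and against endothelial nuclei -4.02 to -1.77. The S phase to mitosis difference between ages was -0.0197 when thinned and -0.0965 to 0.168 with 1 library left out. Between genotypes it was -0.128 with shared barcodes kept and -0.0723 to 0.301 with 1 library left out.

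The labels do not say whether same-numbered libraries share more than the number. The correlations of their deviations from group means were 0.159, -0.0448 and 0.0208 between ages and 0.122 and 0.0740 between genotypes. Deviations from the mean of so few libraries are tied to one another, so these values cannot settle whether such libraries are paired. A replicate block gave 199 calls by age (81 higher, 118 lower) and 11 by genotype.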

Other observations

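In the cycling nuclei the highest UMI total of a nucleus was 11357 and the highest sum over the mitosis list was 189 UMIs, both in control P10 library 2. In KO P10 library 2, which had no cycling cardiomyocyte nucleus, 3 of 210 fibroblast nuclei reached 3 cycle UMIs. All its barcodes together held 813 cycle UMIs, against 1323 to 3843 in the other 8 libraries. Cardiomyocyte nuclei with at least 1 cycle UMI made up 3.15% there and 12.5% to 28.2% in those 8.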
